A study of Mus musculus with 35 samples.

Results

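Fetal-only H3K4me3 peaks are regions that carried a peak of this mark in E18.5 fetal oocytes of the mouse and shared no base with any peak of the 2 late stages, c34 oocyte-like cells and germinal vesicle (GV) oocytes. They were taken from the E18.5 list on autosomes 1 to 19, where 7814 of 24874 peaks (31.4%) met the rule. Of the other autosomal E18.5 peaks, 2452 were shared with GV oocytes only, 1404 with c34 only and 13204 with both. Members were thus chosen by the measured H3K4me3 lists of E18.5, c34 and GV oocytes, so the number, width and H3K4me3 state of these peaks are given as a description with no test. The c13 H3K4me3 list and all H3K27me3 and H3K36me3 lists had no part in the rule.

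The series belongs to work on growing oocytes from embryonic stem cells in the absence of ovarian somatic cells, and mapped 3 histone marks by CATCH-seq, a micrococcal nuclease chromatin immunoprecipitation for small samples with carrier DNA. Cultured stages came from 1 embryonic stem cell line, H18, with the reporters Prdm1-mVenus and Dppa3-ECFP: oogonia-like cells at c7, oocyte-like cells at c13 and oocyte-like cells at c34. E18.5 oocytes came from mice with the same reporters and GV oocytes from BDF1 mice. Every sample is labelled wild type, and the labels give neither the age of the BDF1 mice nor the number of animals pooled. For H3K4me3 there were 4 libraries of c13 cells, 2 of c34 cells, 2 of E18.5 oocytes and 1 of GV oocytes. H3K27me3 had 1 library of GV oocytes and 2 of each other stage, and H3K36me3 had 2 of each of its 4 stages. There was 1 peak list per stage and mark. No difference below could therefore be set against the spread between replicates, and read depth is unknown. A region outside a list is one where no peak was called, not one shown to lack the mark.

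Trimethylation of H3 lysine 4 sits at CpG-rich promoters of active and poised genes. In growing oocytes it also spreads into wide domains away from promoters, mostly over DNA that lacks methylation. H3K36me3 is deposited by SETD2 along transcribed genes and in oocytes guides DNA methylation by DNMT3A and DNMT3L, whereas H3K27me3 is the product of Polycomb repressive complex 2. DNA in chromatin with H3K4me3 is a poor substrate for the DNMT3 enzymes.

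The promoters that follow were chosen by the late states of their peaks, and were not picked to be typical of those states in sequence. All sequences are from RefSeq on GRCm38.p6, run 5′ to 3′ from 250 bases before to 50 bases after a gene start within 1 kb of a fetal-only peak, and have each CpG in capitals. The first 4 belong to genes whose imprints are set by methylation in the maternal germline, and their peaks lay in H3K36me3 and outside H3K27me3 in both c34 and GV oocytes. They were picked after their values were seen. The Plagl1 promoter (chr10:13090582-13090881, plus strand) has 26 CpGs, that of Mcts2 (chr2:152686898-152687197, plus strand) 25, that of Nap1l5 (chr6:58907077-58907376, minus strand) 17 and that of Snrpn (chr7:60005150-60005449, minus strand) 7.
Plagl1: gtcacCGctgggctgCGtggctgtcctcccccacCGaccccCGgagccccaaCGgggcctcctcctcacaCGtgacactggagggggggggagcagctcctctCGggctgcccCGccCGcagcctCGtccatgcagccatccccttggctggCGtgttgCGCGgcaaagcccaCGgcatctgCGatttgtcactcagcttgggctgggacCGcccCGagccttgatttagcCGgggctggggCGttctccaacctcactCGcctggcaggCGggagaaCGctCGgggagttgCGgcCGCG
Mcts2: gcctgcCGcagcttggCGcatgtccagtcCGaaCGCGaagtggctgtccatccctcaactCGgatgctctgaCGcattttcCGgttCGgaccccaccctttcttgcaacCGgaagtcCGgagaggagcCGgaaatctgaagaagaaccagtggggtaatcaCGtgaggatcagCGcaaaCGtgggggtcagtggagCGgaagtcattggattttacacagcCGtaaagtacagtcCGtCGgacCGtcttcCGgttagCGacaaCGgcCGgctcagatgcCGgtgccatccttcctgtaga
Nap1l5: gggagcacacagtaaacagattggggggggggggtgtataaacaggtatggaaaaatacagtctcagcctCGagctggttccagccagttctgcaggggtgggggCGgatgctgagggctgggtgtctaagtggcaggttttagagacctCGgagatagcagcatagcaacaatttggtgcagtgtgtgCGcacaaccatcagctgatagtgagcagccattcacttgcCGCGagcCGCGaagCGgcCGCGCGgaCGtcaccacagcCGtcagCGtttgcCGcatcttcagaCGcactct
Snrpn: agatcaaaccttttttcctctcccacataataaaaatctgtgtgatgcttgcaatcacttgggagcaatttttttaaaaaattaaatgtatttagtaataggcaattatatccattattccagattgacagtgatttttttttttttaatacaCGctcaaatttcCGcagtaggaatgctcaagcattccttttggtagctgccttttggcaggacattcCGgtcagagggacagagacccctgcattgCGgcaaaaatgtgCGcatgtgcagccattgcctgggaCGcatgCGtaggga

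Among genes with the widest fetal-only peaks at their starts, 2 were taken for each of 3 late states found in both c34 and GV oocytes. None was taken for the state with both marks in both. Wfdc16 (chr2:164638753-164639052, minus strand) and Rcan2 (chr17:43801102-43801401, plus strand) had H3K27me3 and no H3K36me3 over most of the peak. Gm13090 (chr4:151089320-151089619, plus strand) and Zbtb46 (chr2:181424339-181424638, minus strand) had H3K36me3 and no H3K27me3. Ccr2 (chr9:124101933-124102232, plus strand) and S100a7l2 (chr3:91090756-91091055, minus strand) had neither. These 6 promoters hold between 1 and 6 CpGs each, fewer than the 4 imprinted ones.
Wfdc16: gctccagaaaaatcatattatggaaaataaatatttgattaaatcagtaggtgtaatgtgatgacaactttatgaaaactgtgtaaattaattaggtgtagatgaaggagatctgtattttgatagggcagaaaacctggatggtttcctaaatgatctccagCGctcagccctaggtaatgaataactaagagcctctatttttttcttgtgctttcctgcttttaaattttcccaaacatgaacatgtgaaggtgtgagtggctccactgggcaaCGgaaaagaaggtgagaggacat
Rcan2: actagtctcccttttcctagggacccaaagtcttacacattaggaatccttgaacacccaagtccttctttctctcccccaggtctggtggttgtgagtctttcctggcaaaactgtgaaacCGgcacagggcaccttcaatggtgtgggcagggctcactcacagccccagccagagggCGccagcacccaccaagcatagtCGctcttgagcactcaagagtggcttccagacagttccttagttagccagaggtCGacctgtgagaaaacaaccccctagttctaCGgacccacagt
Gm13090: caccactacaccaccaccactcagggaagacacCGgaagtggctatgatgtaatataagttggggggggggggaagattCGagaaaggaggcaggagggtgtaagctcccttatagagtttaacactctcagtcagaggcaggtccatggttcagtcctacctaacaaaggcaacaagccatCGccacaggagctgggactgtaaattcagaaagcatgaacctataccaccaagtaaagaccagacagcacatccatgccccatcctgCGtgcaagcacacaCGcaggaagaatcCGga
Zbtb46: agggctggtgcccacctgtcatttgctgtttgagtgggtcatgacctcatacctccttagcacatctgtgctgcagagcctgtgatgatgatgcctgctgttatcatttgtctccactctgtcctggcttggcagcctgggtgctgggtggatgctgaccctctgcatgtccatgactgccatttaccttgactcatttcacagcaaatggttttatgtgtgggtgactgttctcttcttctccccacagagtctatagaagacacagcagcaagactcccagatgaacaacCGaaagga
Ccr2: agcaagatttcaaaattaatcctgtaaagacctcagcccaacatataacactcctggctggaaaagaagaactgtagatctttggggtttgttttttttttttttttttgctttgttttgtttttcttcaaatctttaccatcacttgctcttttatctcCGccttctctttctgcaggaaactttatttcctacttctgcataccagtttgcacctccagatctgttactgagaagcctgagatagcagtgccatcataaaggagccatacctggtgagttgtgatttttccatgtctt
S100a7l2: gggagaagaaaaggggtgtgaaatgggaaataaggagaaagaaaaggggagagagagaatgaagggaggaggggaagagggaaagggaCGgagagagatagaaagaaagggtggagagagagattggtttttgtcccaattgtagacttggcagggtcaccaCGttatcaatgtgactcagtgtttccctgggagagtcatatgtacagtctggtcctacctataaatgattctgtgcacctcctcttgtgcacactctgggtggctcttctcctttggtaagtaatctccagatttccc

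The fetal-only peaks covered 35.3 Mb, 26.8% of the autosomal length of the E18.5 list. Their median width was 3 kb (quartiles 2 and 6 kb, widest 35 kb), against 5 kb (quartiles 2 and 8 kb, widest 197 kb) for peaks shared with both late stages. Peaks of 10 kb or more made up 9.14% of fetal-only peaks and 17.0% of those shared with both. The fetal-only share of E18.5 peaks was between 23.0% on chromosome 19 and 39.0% on chromosome 14, with a median of 30.7% over 19 autosomes. The nearest late H3K4me3 peak lay at a median distance of 16 kb, and 4811 members (61.6%) lay over 10 kb from one. Just inside the rule, 288 members abutted a late peak and 280 had one 1 kb away. Just outside it, 1460 of the other E18.5 peaks shared at most 1 kb with either late list.

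Before the results that rest on it, the E18.5 list was checked against marker genes chosen for each cell type, counting H3K4me3 within 1 kb of a gene start. It held all 6 markers of female germ cells (Ddx4, Dazl, Sycp3, Figla, Nobox and Tdrd1), and 0 of these were at a fetal-only peak. It held 4 of 10 ovarian somatic markers (Foxl2, Fst, Wnt4 and Wt1), 2 of 6 endothelial, 3 of 6 leukocyte, 2 of 6 muscle and 1 of 4 epithelial and liver markers. Of the autosomal erythroid and neuronal markers it held 0 of 3 and 0 of 4. Over all autosomal protein-coding genes, 12678 of 20665 had an E18.5 peak at a start. In the same groups and order, the c13 list held 6, 9, 4, 4, 4, 2, 3 and 4 markers. The c34 list held 6, 6, 3, 4, 4, 2, 2 and 3, and the GV list 6, 8, 3, 4, 5, 2, 2 and 4. Such counts therefore do not measure the purity of the cells. None of these markers had a fetal-only peak at its start. H3K4me3 at a start is not expression, and a part of other cells in the lists was not tested.

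Fetal-only peaks lay mainly inside genes and away from their starts. Of 7814, 569 (7.28%) lay within 1 kb of a protein-coding gene start, against 45% of all autosomal E18.5 peaks. A further 4786 (61.2%) lay elsewhere in a protein-coding gene, against 31.4% of all, and 2459 (31.5%) lay outside such genes, against 23.6% of all. Among peaks shared with both late stages the start was the main place, with 74.8%, and 11.6% lay elsewhere in a gene. Starts made up 15.3% of peaks shared with GV oocytes only and 26.6% of those shared with c34 only. On single autosomes the share at starts was between 5.02% and 11.0% for fetal-only peaks and between 69.9% and 79.3% for peaks shared with both. The 2 ranges thus did not overlap. Where a gene had no annotated strand, both of its ends counted as starts. Where up to 50% of a peak could be shared with each late list, 1921 of 10284 members (18.7%) lay at starts and 53.1% elsewhere in a gene. In another setting, late peaks narrower than their own list's median (5 kb in c34, 11 kb in GV) were ignored. There 2610 of 11058 members (23.6%) lay at starts and 48.7% elsewhere in a gene. The count at starts thus depends on the narrower late peaks.

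**Figure D1:**
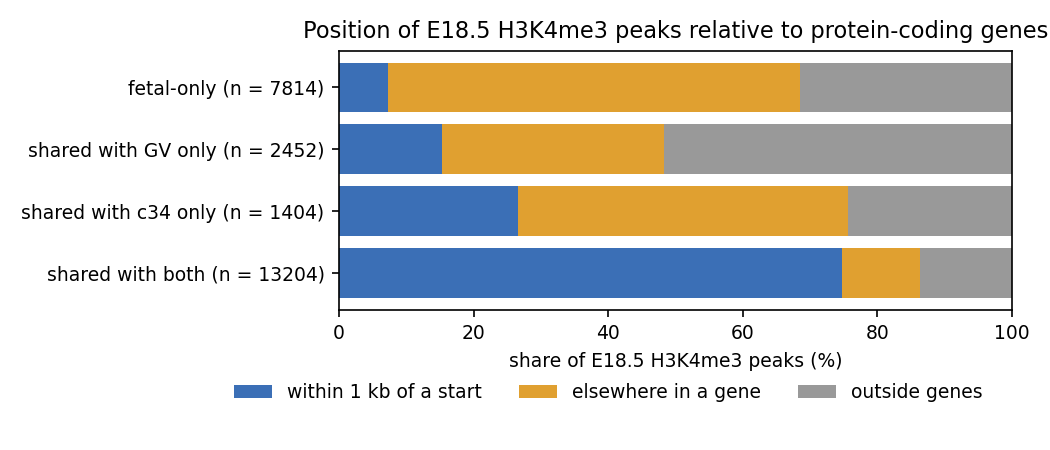
Share of E18.5 H3K4me3 peaks (horizontal axis, percent) within 1 kb of a protein-coding gene start (blue), elsewhere in a gene (orange) or outside genes (grey), for the 4 classes of peaks with their numbers. Starts make up 7.28% of the fetal-only bar and 74.8% of the bar of peaks shared with both late stages.

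Most internal fetal-only peaks lay in genes with late H3K4me3 at the start. Of 4786 internal members, 3997 (83.5%) lay in a gene with an E18.5 peak at its start, and 3772 (78.8%) in a gene with both c34 and GV peaks there. For internal peaks shared with both late stages the shares were 70.0% and 74.1%. The internal members lay at a median of 34.3 kb from the nearest protein-coding start, against 18.9 kb for internal peaks shared with both. Members outside genes lay at a median of 98.1 kb from a start, against 31.3 kb.

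Fetal-only peaks overlapped 3561 of 20665 autosomal protein-coding genes (17.2%), and 451 of these held 3 or more. These host genes had a median length of 78.9 kb, against 17.5 kb for all protein-coding genes. Their length was not set against that of the 13909 genes that overlapped any E18.5 peak, so it is not shown to be particular to fetal-only peaks. Asic2, an acid-sensing ion channel gene (chr11:80880163-81968396), held the most, with 14 peaks of 1 to 12 kb. All 14 lay in H3K27me3 at each of the 5 stages, and 0 lay in H3K36me3 of c34, E18.5 or GV oocytes. Camta1, a calmodulin-binding transcription activator gene (chr4:151059523-151861768), held 11, and 5 of these were under H3K36me3 of c34 cells, 0 under that of E18.5 oocytes and 6 under that of GV oocytes, while H3K27me3 covered 8, 8 and 7. Late cover was thus of 1 kind over all members in Asic2 and of both kinds in Camta1.

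The widest member, 35 kb at chr4:155417001-155452000 in Cfap74, lay wholly in H3K27me3 at all 5 stages and in H3K36me3 at c13 alone. Of the 4 next widest, a 30 kb peak (chr4:151064001-151094000, over Camta1 and Gm13090) lay wholly in H3K36me3 in c34 and GV oocytes. A 28 kb peak on chromosome 13 (80903001 to 80931000) with no annotated gene within 1 kb lay wholly in H3K27me3 in c34, with 11 kb so covered in GV oocytes. A 26 kb peak on chromosome 7 at the non-coding gene Gm29931 and a 26 kb peak on chromosome 8 over Enpp6, which encodes a choline phosphodiesterase, lay wholly in H3K27me3 in both late stages. The widest members were thus found in both kinds of late chromatin.

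Most fetal-only peaks also had H3K4me3 at c13, the cultured stage nearest to E18.5. Of 7814, 6574 (84.1%, 95% Wilson interval 83.3 to 84.9%) shared a base with a c13 peak, against 92.4% of all autosomal E18.5 peaks and 98.1% of those shared with both late stages. Peaks shared with GV oocytes only had 87.4% and those shared with c34 only 92.7%. Wilson intervals cover counting error only, and neighbouring peaks are not independent. By autosome the share was 77.0 to 88.8% for fetal-only peaks and 97.0 to 99.5% for peaks shared with both, without overlap. At least 50% of the peak lay in c13 peaks in 67.8% of members, against 78.5% of all E18.5 peaks, and 57.8% of the members' length was so covered. Members at gene starts had a c13 peak in 95.3% of cases, internal ones in 86.1% and those outside genes in 77.7%.

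The 1240 members without a c13 peak had the same median width, 3 kb, as those with one, and lay at a gene start in 2.18% of cases, against 8.24%. In c13, 46.1% of them were in H3K36me3, against 74.8% of members with a c13 peak, and 40.7% in H3K27me3, against 59.9%. In GV oocytes, 19.4% of them had neither mark, against 7.07%. At E18.5, H3K36me3 covered 26.5% of them, against 21.7%, and GV H3K27me3 covered 35.6%, against 37.9%. Members without a c13 peak thus had the lower share in the c13 lists, of which that of H3K36me3 consists largely of domains of 1 Mb or more, and the higher share in E18.5 H3K36me3.

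Fetal-only peaks lay under H3K27me3 of GV oocytes in a larger share than peaks shared with both late stages, and in about the same share as peaks shared with GV oocytes only. A peak was counted as covered from 50% of its length. In c7 cells 37.3% of members were covered by H3K27me3, against 39% of all E18.5 peaks and 37.6% of those shared with both late stages. In c13 cells the share was 56.8%, against 63.1% of all and 64.7% of those shared with both. In c34 cells 3381 members (43.3%) were covered, against 41.1% of all and 34.6% of those shared with both. At E18.5 itself the members' share was 37.4%, against 34.6% of all and 30.0% of those shared with both. In GV oocytes, which had 1 H3K27me3 library, 2933 members (37.5%, autosomes 25.9 to 48.2%) were covered. The shares were 25.5% of all and 15.8% (9.20 to 22.5%) of those shared with both. The members' share was above that of peaks shared with both on 0 of 19 autosomes in c13, on 18 in c34 cells, on 18 in fetal oocytes and on 19 in GV oocytes, where the difference was 11.6 to 26.6 percentage points. Peaks shared with GV oocytes only had 77.1% in c13 cells, 75% in c34 cells, 51.2% in fetal oocytes and 38.7% in GV oocytes, each above the members. Peaks shared with c34 only had 58.6%, 30.6%, 33.8% and 26.1%. High cover by H3K27me3 was therefore not particular to fetal-only peaks.

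H3K36me3 cover of fetal-only peaks lay between that of the other classes at the late stages. It was found at 5491 members (70.3%) in c13, against 75% of all E18.5 peaks, and at 4569 (58.5%) in c34, against 60.1%. It was found at 1756 (22.5%) at E18.5, against 20.9% of all, and at 4734 (60.6%) in GV oocytes, against 57%. Peaks shared with both late stages had 79.7%, 67.1%, 19.6% and 59.7% in the same order, and members were below them on 19 of 19 autosomes in c13 cells, 16 in c34 cells, 8 in fetal oocytes and 7 in GV oocytes. Peaks shared with GV oocytes only had 24.8% in c34 and 25.8% in GV oocytes, and those shared with c34 only 64.5% and 66.5%. By autosome the E18.5 share of members ran from 4.57 to 65.8%, the widest range of any list. Without H3K36me3 domains of 1 Mb or more the counts were 860 at E18.5 and 766 in c13, so that these 2 values come largely from very wide domains. The same step left 2480 of 4440 members in c13 H3K27me3.

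**Figure D2:**
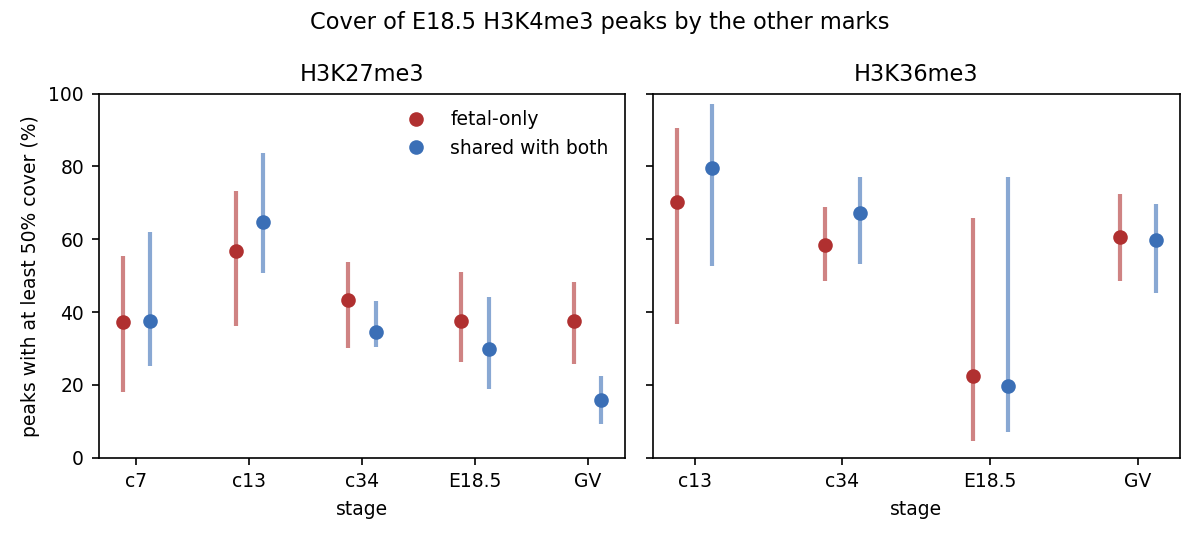
Share of peaks with at least 50% of their length in H3K27me3 (left) or H3K36me3 (right) peaks (vertical axis, percent) at each stage (horizontal axis), for fetal-only peaks (red) and peaks shared with c34 and GV (blue). Points are all autosomes together and lines run from the lowest to the highest of 19 autosomes. For H3K27me3 in GV oocytes the red line, 25.9 to 48.2%, lies above the blue, 9.20 to 22.5%.

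The late marks differed by position. Inside genes, 76.6% of fetal-only peaks were under H3K36me3 in c34 cells, 23.0% in fetal oocytes and 77.6% in GV oocytes. For internal peaks shared with both late stages the values were 65.6%, 20.3% and 59.3%, and for those shared with c34 only, 82.5%, 20.3% and 85.2%. For internal peaks shared with GV oocytes only they were 31.5%, 23.3% and 35.3%. Outside genes, H3K27me3 covered 64.3% of fetal-only peaks in c34 cells, 59.7% in fetal oocytes and 58.0% in GV oocytes, against 48.3%, 50% and 16.2% of peaks shared with both. Outside genes, GV H3K27me3 covered 30.7% of peaks shared with GV oocytes only and 29.0% of those shared with c34 only, while c34 H3K27me3 covered 72.6% and 31.4%. At gene starts, H3K27me3 covered 54.1% of fetal-only peaks in GV oocytes, against 61.5% of those shared with GV oocytes only, 49.9% of those shared with c34 only and 14.9% of those shared with both. H3K36me3 covered 49.0% of them, against 23.8%, 53.1% and 64.0%. Internal members therefore lay mostly in late H3K36me3, and those outside genes mostly in H3K27me3.

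Few fetal-only peaks were free of both marks late. In c13, 19.4% of members had neither mark over 50% of their length, against 14.5% of all E18.5 peaks, and in c34 9.32%, against 11.7% of all and 12.2% of those shared with both late stages, and 14.7% and 14.0% of those shared with GV oocytes only and c34 only. At E18.5 itself the share was 48.1%, against 51.9% of all. In GV oocytes 706 members (9.04%) had neither mark, against 23% of all E18.5 peaks, 28.9% of those shared with both late stages, 42.9% of those shared with GV oocytes only and 11.4% of those shared with c34 only. A low share was thus found in both classes without a GV H3K4me3 peak. The autosomal length as a whole had neither mark over 37.3% in GV oocytes. On single autosomes the GV share was 4.02 to 18.7% for members and 19.2 to 45.8% for peaks shared with both. Members had the lower share on 15 of 19 autosomes in c34 and on 19 of 19 in GV oocytes.

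The difference from peaks shared with both was seen in GV oocytes in every width class. Among peaks of 1 to 2 kb, 12.2% of members and 31.0% of peaks shared with both had neither mark in GV oocytes. Among peaks of 3 to 5 kb the shares were 8.32% and 30.5%, and among peaks of 6 kb or more 5.63% and 26.4%. Width classes were chosen after the data were seen.

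**Figure D3:**
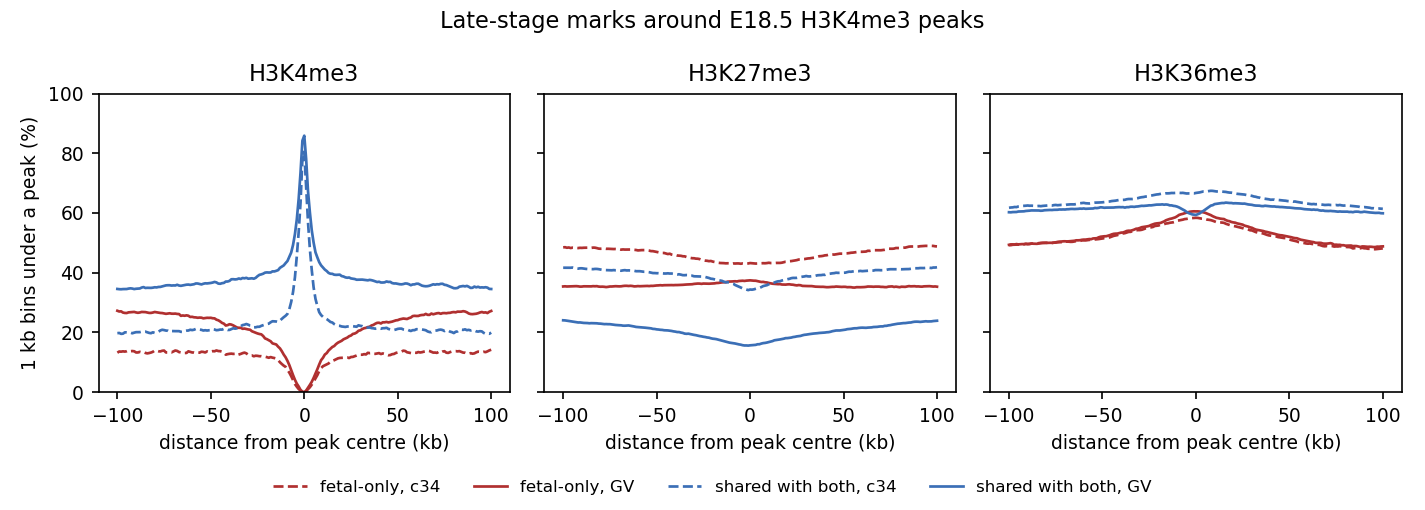
Share of 1 kb bins under a late-stage peak (vertical axis, percent) by distance from the centre of the E18.5 peak (horizontal axis, kb), for fetal-only peaks (red) and peaks shared with both late stages (blue) in c34 (dashed) and GV oocytes (solid). H3K4me3 at fetal-only centres is 0 by the rule and reached 27.2% at 100 kb in GV oocytes, while GV H3K36me3 was 60.5% at the centre and 48.8% at 100 kb downstream on the chromosome.

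Around fetal-only peaks, H3K36me3 was highest at the peak itself. In GV oocytes it covered 60.5% of bins at the centre and 49.3% and 48.8% of bins at 100 kb to either side. Around peaks shared with both late stages, GV H3K36me3 was 59.3% at the centre and 60.2% and 59.9% at those distances. GV H3K27me3 was 37.4% at the centre of fetal-only peaks and 35.4% and 35.3% at 100 kb, against 15.7% at the centre of peaks shared with both and 24.1% and 23.9% at 100 kb. GV H3K4me3 was low past the edges of most fetal-only peaks, with 11.7% and 11.5% at 10 kb from their centres, against 43.2% and 41.7% around peaks shared with both. The value at the centre is fixed by the rule, and nearby values are partly so.

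Most fetal-only peaks had the same state in the 2 late stages, with neither mark counted as a state. Of 7814, 6316 (80.8%) had the same state in c34 and GV oocytes, against 70.8% of all E18.5 peaks, 67.2% of those shared with both late stages, 52.3% of those shared with GV oocytes only and 81.7% of those shared with c34 only. H3K36me3 alone was found in both at 3523 members (45.1%, against 41.9% of all), and H3K27me3 alone in both at 2056 (26.3%, against 16.8% of all). Of peaks shared with c34 only, 53.6% had H3K36me3 alone in both, and of those shared with GV oocytes only, 27.8% had H3K27me3 alone in both, so each state was at least as frequent in another class. Neither mark was found in both at 393 (5.03%, against 8.55% of all), and both marks in both at 344 (4.40%, against 3.63% of all). A switch between the single marks was rare: 123 members had H3K27me3 alone in c34 and H3K36me3 alone in GV oocytes, and 13 the opposite. The c34 and GV lists come from a cell line and from animals, so this is no comparison of successive stages.

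**Figure D4:**
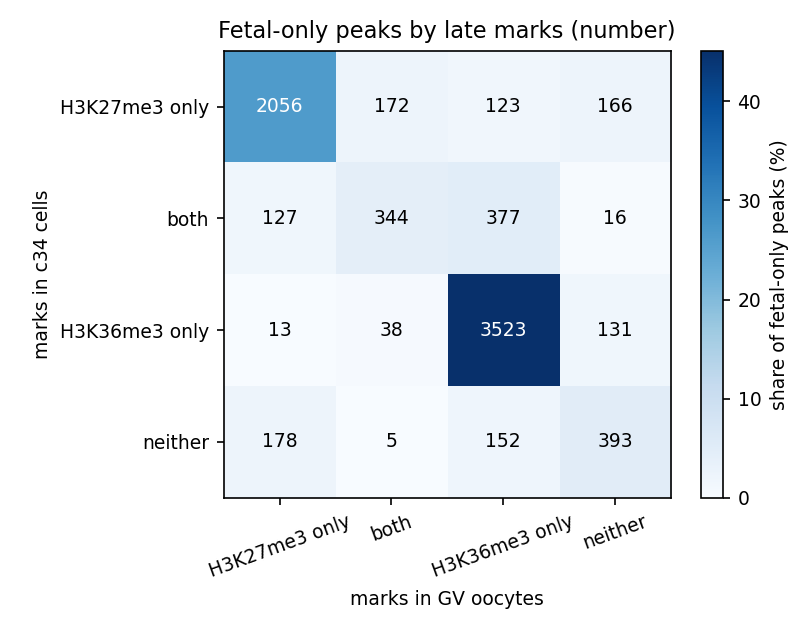
Number of fetal-only peaks by the marks over at least 50% of their length in c34 cells (rows) and in GV oocytes (columns), shaded by share of all fetal-only peaks. The largest cells are H3K36me3 alone in both, 3523, and H3K27me3 alone in both, 2056.

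Over all E18.5 peaks, 51.9% had neither mark in fetal oocytes, 27.3% H3K27me3 alone and 13.5% H3K36me3 alone, and in GV oocytes 19.9% had H3K27me3 alone and 51.5% H3K36me3 alone. The 3757 members with neither mark in fetal oocytes (48.1%) had H3K36me3 alone in GV oocytes in 2485 cases (66.1%) and H3K27me3 alone in 721 (19.2%). The 2301 members with H3K27me3 alone at E18.5 had H3K27me3 alone in GV oocytes in 1231 cases (53.5%) and H3K36me3 alone in 637 (27.7%). The 1131 with H3K36me3 alone at E18.5 had it alone in GV oocytes in 834 cases (73.7%). Among members, the most frequent pair of states was thus neither mark at E18.5 and H3K36me3 alone in GV oocytes. Pairs of states were not counted over all E18.5 peaks, so this is not shown to be particular to members. The H3K36me3 list itself covered 23.8% of autosomal length at E18.5 and 38.5% in GV oocytes.

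At the level of genes, 12678 autosomal protein-coding genes had an E18.5 peak within 1 kb of a start. Of these, 583 (4.6%) had a fetal-only peak there, and 402 (3.17%) also had no c34 or GV peak at any annotated start, called fetal-only genes here. For 318 the start was annotated and for 84 it was either gene end. In c13, 375 of the 402 had H3K4me3 at a start. Of single peaks at gene starts, 95.3% of fetal-only peaks shared a base with a c13 peak. The share was 96.3% for those shared with GV oocytes only, 98.9% with c34 only and 99.9% with both. With late peaks narrower than their list's median ignored, 2599 genes met the rule. H3K27me3 alone covered the peak in both late stages at 223 of the 402 genes (55.5%) and H3K36me3 alone at 92 (22.9%), while both marks did at 27 (6.72%) and neither did at 14 (3.48%). The share of genes in these states was not computed for other genes, but of single peaks at gene starts, H3K27me3 alone in both covered 43.9% of fetal-only peaks, 44.9% of those shared with GV oocytes only, 35.1% of those shared with c34 only and 8.04% of those shared with both. H3K27me3 alone was thus the most frequent late state at these genes, and H3K36me3 alone over all fetal-only peaks. At E18.5 the numbers were 179 with H3K27me3 alone, 41 with H3K36me3 alone and 147 with neither. Of single peaks at gene starts, H3K27me3 alone at E18.5 covered 38.5% of fetal-only peaks. It covered 43.6% of those shared with GV oocytes only, 32.4% with c34 only and 20.8% with both.

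Genes imprinted through maternal germline methylation included fetal-only starts. The gene lists were chosen with earlier results of these data known, so their counts are no independent evidence. Of 14 such genes with an E18.5 start, 5 had a fetal-only peak at a start and 4 were fetal-only genes, against 4.6% and 3.17% of all genes with an E18.5 start. At Plagl1, a zinc finger gene (chr10:13090001-13092000), the 2 kb peak lay wholly in c13 H3K4me3. It lay wholly in H3K27me3 at c7 and c13, while 0 kb lay in that of the 3 other stages. H3K36me3 covered it wholly in c34 and GV oocytes only.

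At Mcts2, an imprinted retrogene (chr2:152685001-152700000), all 15 kb lay in c13 H3K4me3 and in H3K36me3 of c13, c34 and GV oocytes, and 0 kb in H3K36me3 of E18.5 oocytes. H3K27me3 covered the 15 kb at c13 and 0 kb at the 4 other stages. At Nap1l5, a nucleosome assembly protein gene (chr6:58906001-58908000), the 2 kb lay in c13 H3K4me3, in no H3K27me3 of any of the 5 stages, and in H3K36me3 of c34 and GV oocytes only. These 3 genes therefore had no H3K36me3 at the peak at E18.5 and full cover in both late stages.

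At Snrpn, a spliceosome gene of the Prader-Willi region (chr7:59995001-60006000), 3 of 11 kb lay in c13 H3K4me3 and all 11 kb in H3K36me3 of c34 and GV oocytes, with 0 kb in H3K36me3 of c13 and E18.5 and 0 kb in H3K27me3 of all 5 stages. Zdbf2 (chr1:63196001-63201000) had a 5 kb peak in H3K36me3 of c34 cells, E18.5 oocytes and GV oocytes, and late H3K4me3 peaks at another of its 2 starts. Of the other 9 genes, Mest, Igf2r, Impact, Inpp5f, Grb10 and Peg10 had both late peaks at a start, and Peg3, Zrsr1 and Nnat a c34 peak alone. These peaks were counted at gene starts, or at either gene end for Impact and Peg10. The methylated control regions of the genes were not examined, so the counts do not tell their H3K4me3 state. In all, 10 of the 14 had a c34 peak at a start and 7 a GV peak.

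Of genes whose imprinting depends on H3K27me3, 3 of 13 with an E18.5 start had a fetal-only peak there, against 4.6% of all genes with an E18.5 start. They were Sfmbt2, Jade1 and Slc38a4. At Sfmbt2, a Polycomb group gene needed in the placenta (chr2:10362001-10378000), 6 of 16 kb lay in c13 H3K4me3. All 16 kb lay in H3K27me3 at c13, c34 and in GV oocytes and 0 kb at c7 and E18.5, with 0 kb in H3K36me3 at every stage. At Slc38a4, an amino acid transporter gene (chr15:97049001-97060000), all 11 kb lay in c13 H3K4me3 and in H3K36me3 at c13, c34 and in GV oocytes. H3K27me3 covered 11 kb of it at c13, 10 kb at E18.5, and 0 kb at c7, c34 and in GV oocytes. These 2 genes of the list thus had opposite late states at their starts. At Jade1 (chr3:41555001-41557000) the 2 kb peak lay in H3K27me3 in c34 and GV oocytes, and another start had a c34 H3K4me3 peak. Inside or at the start, 10 of 15 genes of this list and 8 of 14 of the maternal methylation list overlapped a fetal-only peak, against 17.2% of all protein-coding genes. That background includes genes without any E18.5 peak: of 13909 genes that overlapped one, 3561 overlapped a fetal-only peak. Other lists had 7 of 19 germline, 11 of 32 TGF-beta, BMP and activin, 7 of 21 Notch and 11 of 33 chromatin machinery genes. Among oocyte factors it was 1 of 24, and among developmental regulators 1 of 30. Gene length was not matched.

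The pluripotency genes Nanog and Esrrb were the 2 fetal-only genes among 15 early germ cell genes with an E18.5 start. The share over all genes with an E18.5 start was 3.17%. At Nanog, which encodes a homeodomain factor (chr6:122696001-122708000), all 12 kb lay in c13 H3K4me3 and in H3K27me3 of c34 and GV oocytes, with 0 kb in H3K27me3 at c7, c13 and E18.5 and 0 kb in H3K36me3 at all 4 stages. At Esrrb, which encodes an orphan nuclear receptor (chr12:86414001-86426000), 7 of 12 kb lay in c13 H3K4me3 and all 12 kb in H3K27me3 at all 5 stages. At Nanog H3K27me3 was thus seen at the late stages alone, and at Esrrb throughout.

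Of 35 meiosis genes with an E18.5 start, Spata22, a partner of MEIOB in recombination (chr11:73329001-73331000), was the 1 fetal-only gene. That is close to the 3.17% of all genes with an E18.5 start, to which the other single genes below also compare. Its 2 kb peak lay wholly in c13 H3K4me3 and in H3K27me3 of c7, c34, E18.5 and GV oocytes. It also lay wholly in H3K36me3 at c13 and E18.5, and 1 kb lay in c13 H3K27me3. Spo11 and Majin had a fetal-only peak at 1 gene end and a late peak at the other. Single genes of other lists were Dkk1 (a secreted Wnt inhibitor, 1 of 28), Zap70 (a T-cell kinase, 1 of 11 in a longer list of leukocyte genes) and Myf5 (a myogenic factor, 1 of 4 in a longer list of muscle genes). At Dkk1 all 8 kb lay in H3K36me3 of c34 and GV oocytes and 0 kb in that of c13 and E18.5. H3K27me3 covered all 8 kb at c7, c13 and E18.5 and 0 kb in c34 and GV oocytes. At Zap70 all 4 kb lay in H3K36me3 of c13, c34 and GV oocytes and in H3K27me3 of c7 and c13 only. At Myf5 all 6 kb lay in H3K27me3 at all 5 stages. Gins1, of 34 replication genes, had a fetal-only peak at 1 end and late peaks at the other.

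No fetal-only gene was found among 13 oocyte factors, 17 germline genes, 24 developmental regulators, 31 genes of TGF-beta, BMP and activin signalling, 16 of Notch signalling, 32 of chromatin machinery, 34 replication genes or 16 housekeeping genes with an E18.5 start. The same held for 13 ovarian somatic, 5 endothelial, 2 erythroid, 7 neuronal and 7 epithelial and liver genes. With a background of 3.17%, a count of 0 is not far from the background in lists of this size. Among families, fetal-only genes numbered 0 of 36 Hox genes, 0 of 76 ribosomal protein genes, 0 of 12 protocadherins, 1 of 72 histone genes (H4c17), 1 of 17 interleukins and their receptors (Il22ra1), 11 of 226 solute carriers and 14 of 330 Zfp genes. They numbered 5 of 13 keratins, among them Krt77, Krt1 and Krt2, 4 of 18 collagens, among them Col18a1, Col5a1 and Col19a1, 6 of 16 olfactory receptors and 2 of 4 vomeronasal receptors, Vmn1r184 and Vmn1r196. Genes of a cluster can share a domain and are not independent.

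The widest fetal-only peaks at gene starts are given here for 3 late states. In H3K27me3 alone in both late stages were Wfdc16 (21 kb), Ankrd33 (18 kb), Rcan2, a calcineurin regulator (16 kb), Plekhh2 (15 kb) and Ebf1, a B-lymphocyte transcription factor (14 kb). In H3K36me3 alone were Zbtb46, a transcription factor of dendritic cells (19 kb), Gk2, a testis glycerol kinase (16 kb), Lmna, the gene of A-type lamins (14 kb), and Slc3a1, a cystine transporter subunit (14 kb). At Lmna (chr3:88492001-88506000) all 14 kb lay in H3K36me3 of c13, c34 and GV oocytes and in H3K27me3 of c7 and E18.5 only. At Gk2 (chr5:97441001-97457000) 0 of 16 kb lay in c13 H3K4me3, and all 16 kb in H3K36me3 of c34, E18.5 and GV oocytes. With neither mark in both were Ccr2, a monocyte chemokine receptor (13 kb), S100a7l2 (9 kb), D830030K20Rik and Gm38690, which shared a 5 kb peak, Rgs18 (5 kb) and Sntn (4 kb).

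Some fetal-only genes had unlike late states in c34 and GV oocytes. Cav2, the caveolin-2 gene (chr6:17276001-17282000), had H3K27me3 over all 6 kb in c34 and H3K36me3 over all 6 kb in GV oocytes, as had Plch1 and Ptpn20 over their peaks. Tas2r130, a taste receptor gene, was the 1 gene with H3K36me3 alone in c34 and H3K27me3 alone in GV oocytes. At Casq1, a calcium store protein of muscle, and Tubb4a, a brain tubulin, both marks were found in c34 and H3K36me3 alone over at least 50% of the peak in GV oocytes, a state shared by 16 genes. Mucl2, with the widest of these peaks, 25 kb, had H3K36me3 alone in c34 and both marks in GV oocytes.

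Promoters at fetal-only starts held fewer CpGs than those with late H3K4me3. The reference table gave 464 such promoters of 393 genes, with none on chromosome 18. Each start was taken singly, so these include genes with a late peak at another start, beyond the 318 fetal-only genes with annotated starts. They held a median of 11 CpGs in 300 bases (quartiles 5 and 18), against 23 (16 and 31) at 10769 promoters with E18.5, c34 and GV peaks, 3 at 7972 promoters with no E18.5 peak and 14 over all 20085. A ratio of observed to expected CpG of 0.6 or more was found in 34.3%, against 80.9% with late peaks and 48.9% of all promoters. Fetal-only promoters with H3K27me3 alone in both late stages held a median of 12 CpGs, those with H3K36me3 alone 9, and the 11 with neither mark 23. The lower quartiles of these 3 states were 7.5, 5 and 7.5 CpGs. Of the 6 promoters printed for the widest peaks, only that of Gm13090, with 6 CpGs, reached the lower quartile of its own state. Those 6 are thus mostly poorer in CpG than their states. The printed promoters of Plagl1 and Mcts2 exceed the upper quartile of all fetal-only promoters.

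**Figure D5:**
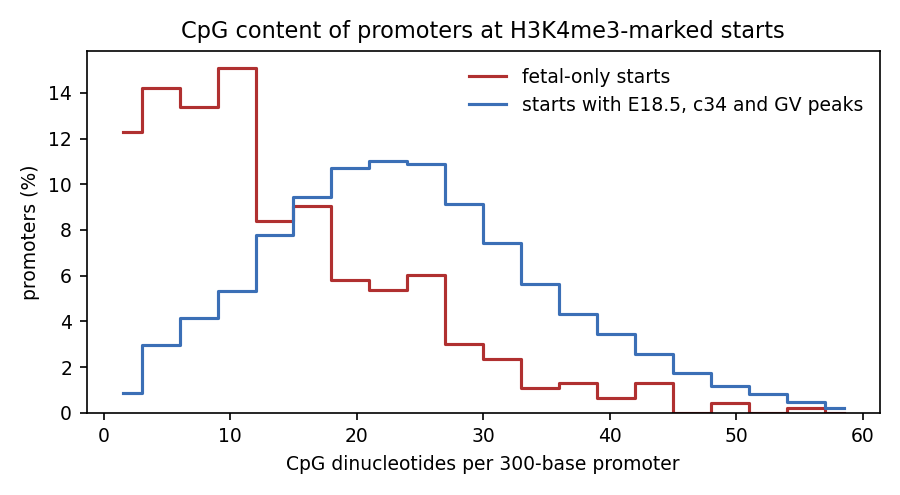
Share of promoters (vertical axis, percent) by the number of CpG dinucleotides in 300 bases (horizontal axis, bins of 3) for fetal-only starts (red, 464 promoters) and starts with E18.5, c34 and GV peaks (blue, 10769 promoters). The medians are 11 and 23.

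Of 8 motifs searched on both strands, GGGCGG (the GC box) was found in 42.5% of fetal-only promoters, against 69.4% of those with E18.5, c34 and GV peaks and 47.0% of all promoters. TATAAA (the TATA box) was found in 12.5%, against 5.87% and 12.7%, and TTCCCGC (an E2F motif) in 4.74%, against 9.38% and 6.05%. In the same order the shares were 7.97%, 10.6% and 7.89% for CACGTG, 34.7%, 37.8% and 38.1% for CCAAT, 13.4%, 11.1% and 14.7% for AGGTCA, 22.0%, 18.1% and 20.0% for CACCTG, and 5.17%, 4.25% and 6.91% for GATAAG. Motifs rich in G and C follow base composition, and a match is not a bound site.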

How the data were processed

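The authors deposited 13 peak lists, 1 per stage and mark, each with a chromosome, start and end per the file headers, and no score. Starts count from 0 and ends are inclusive, with steps of 1 kb in the H3K4me3 lists and of 10 kb elsewhere. Tools named by the submitters' processing notes are the peak callers MACS2 2.1.1 and SICER 0.0.41, the aligner Bowtie2 2.3.4.1, the trimmers cutadapt 1.9.1 and Trim Galore 0.4.1, and the utilities Picard 2.18.23, deepTools 3.5.0, bedtools 2.29.2 and SAMtools 1.7. The builds named there are mm10 and GRCm38.p3. The sources used here do not say which caller, threshold or input made each list, nor whether libraries were pooled. A deeper library or looser threshold gives longer lists, and the 10 kb grid makes cover of narrow peaks nearly all or none.

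Overlaps were counted in 1 kb bins, and coordinates are printed 1-based on GRCm38. Cover means at least 50% of a peak, and for c13 H3K4me3 any base. Gene positions came from the RefSeq table of GRCm38.p6, and 16457 of 20665 autosomal protein-coding genes had annotated starts in its promoter table. Autosomal length runs to just past the last peak of any list. Members, 21 gene lists (482 entries, all matched by symbol) and 11 families were chosen with earlier results of these data known. Genes were named by rule: list members with a fetal-only peak at a start (at most 6 per list), the 10 widest fetal-only starts, genes at the 5 widest members, up to 6 per like late state and 4 per unlike one, and the 3 genes with most members. For brevity not every gene that the rule gives is printed, and some are not reported here. Where a gene symbol outside the rule appears, it was chosen after values were seen. No test was run, since each group has 1 list. Ranges over autosomes describe spread between autosomes, and 95% Wilson intervals cover counting error only. Cover arithmetic was tested on simulated data, where 28500 of 28500 peaks were recovered, and bedtools 2.31.1 gave the same 7814 members. The software was matplotlib 3.10.9, scipy 1.17.1, Python 3.11.15, pandas 2.3.3 and numpy 2.4.6. Alternatives changed the distance or overlap to late peaks, widths, cover, wide domains and gene window. The planned comparison by gene start used either gene end where no strand was given. Input libraries were not used here.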

Additional observations from a re-analysis of the deposited data

How the results depend on the processing

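Of 109 recomputed counts that answer a comparison, 91 stayed within 1.5 times the reported count. Keeping only members of at least the median E18.5 width (4 kb) left 3822 members, of which 3233 had c13 H3K4me3. Of these, 1657 and 1448 lay in H3K27me3 of c34 and GV oocytes and 2324 and 2407 in H3K36me3. H3K27me3 alone in both covered 1029, H3K36me3 alone 1828 and neither 132. By position 342 lay at starts, 2410 elsewhere in genes and 1070 outside, and 237 genes were fetal-only. Such counts are smaller because fewer members enter. With late H3K4me3 lists cut to their median width, there were 11058 members. Of these, 2610 lay at starts and 712 (6.44%) had neither mark in both, and 2599 genes were fetal-only. With up to 50% sharing allowed, 1921 of 10284 lay at starts. Without mark domains of 1 Mb or more, 738 had neither mark in both. Over the 5 other ways of choosing members, the share in GV H3K27me3 was 35.0 to 41.0% and that in GV H3K36me3 58.0 to 63%. The gene count was 318 with annotated starts only and 400 without chromosome 18, both chosen after seeing the data. No paired analysis was possible because each stage and mark has 1 list, and for the same reason no replicate could be left out. Unknown depth limits every statement that a peak is absent.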

Other observations

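The X chromosome was outside the rule. Of 767 E18.5 H3K4me3 peaks on X, 225 (29.3%, 95% Wilson interval 26.2 to 32.7%) shared no base with a c34 or GV peak, against 31.4% on the autosomes. Of 919 autosomal microRNA hairpins, 218 lay in an E18.5 H3K4me3 peak and 13 of these in a fetal-only peak, Mir7-1 and Mir744 among them. That share is below the 31.4% of autosomal E18.5 peaks, and the 26.8% of their length, that were fetal-only. Away from protein-coding starts, 539 fetal-only peaks lay within 1 kb of a start or end of another kind of gene, of which 331 were at long non-coding RNAs and 142 at pseudogenes. The same share was not computed for all E18.5 peaks.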
